A study of Mus musculus with 18 samples.

Results

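The comparison concerned infarcted mouse hearts from animals given DCA against infarcted hearts from animals given vehicle. It used 12 of the 18 libraries of the series, 6 labelled MI with DCA at 10 mg/kg per day and 6 labelled MI with vehicle, chosen by their tissue and treatment labels. The other 6 libraries, from sham-operated mice given vehicle, are shown as a background level only, and no sham-operated group given DCA was analysed here. All mice were of the inbred strain C57BL/6, and RNA came from the apex of perfused hearts collected 1 day after surgery. DCA is not spelled out in the labels and is taken as deoxycholic acid, because the series title joins it to TGR5. Age, sex, infarct size, and the route and start of dosing are not stated in the labels. The question posed by the series title is whether DCA alters the inflammatory response of the infarcted heart.

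Deoxycholic acid is a secondary bile acid made by gut bacteria. TGR5, encoded by Gpbar1, is a membrane bile acid receptor that couples to the stimulatory G protein and raises cAMP, and in macrophages its activation is known to restrain NF-kB signalling and the NLRP3 inflammasome. In the first day after coronary occlusion, dying cardiomyocytes release danger signals, neutrophils and monocytes enter the tissue, and surviving muscle induces natriuretic peptides. Antigen is meanwhile presented on MHC class II molecules by dendritic cells, B cells and part of the macrophages of the heart.

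Values are FPKM, read counts scaled by transcript length and by mapped reads. Differences are DCA minus vehicle in log2(FPKM + 1), each with its standard error (SE), a scale that understates the change of low genes. Where 3 values are given for a group, they are the lowest, the median and the highest of its 6 hearts. The estimated depth was 10000000 to 12800000 mapped reads in the DCA libraries and 11200000 to 13800000 in the vehicle libraries. Cardiomyocyte markers had a mean level per heart of 9.87 to 10.5 with DCA and 9.78 to 10.5 with vehicle on the log2 scale, and no marker of lung epithelium passed the filter on low values. The infarcted hearts differed widely within each group before any comparison. On the first principal component of all 18 libraries, which held 70.7% of the variance, sham hearts lay between -41.2 and -33.1. Vehicle replicate 4 lay at -14.8 and DCA replicates 1, 3 and 5 at -19, -25.3 and -14.3, whereas the other vehicle hearts lay between 17.5 and 54.6 and DCA replicates 2, 4 and 6 at 49.1, 16.2 and 40.1. Hearts near the sham end were thus 1 of 6 with vehicle and 3 of 6 with DCA. The part of this spread in the results was not tested beyond the values given beside them, and in bulk tissue fewer cells of a type and less RNA per cell cannot be told apart.

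No single gene passed the test between DCA and vehicle. The test covered 12004 genes that reached 1 FPKM in 6 or more of the 12 hearts. Of these, 0 (0%) were called at an adjusted p under 0.05 by limma, and the smallest adjusted p was 0.301, for Aldoart1, an aldolase retrogene. At an unadjusted p under 0.05, 192 genes (1.6%) were on the higher side with DCA and 1107 (9.22%) on the lower side. Differences were below 0 for 7779 genes (64.8%), with a median of -0.06 over all genes tested. The 2 groups of 6 did not overlap for 9 genes on the higher side (0.075%) and 56 on the lower side (0.467%), and 39 genes (0.325%) differed by at least 1 on the log2 scale. The 95% interval of the difference lay within -1 and 1 for 11031 genes (91.9%), with a median half-width of 0.277, so smaller differences were often not resolvable with 6 hearts a group.

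Transcripts gave 0 calls (0%) as well among 19817 tested by limma, with 531 on the higher and 1210 on the lower side at an unadjusted p under 0.05. The excess of genes on the lower side depended on scaling: with median-ratio size factors the gene counts at an unadjusted p under 0.05 were 519 higher and 610 lower, and with quantile normalisation 563 and 569. Single libraries moved the counts further. Leaving out vehicle replicate 4 gave 503 higher and 2196 lower, leaving out DCA replicate 2 gave 359 and 1909, and leaving out DCA replicate 6 gave 347 and 1243. In the other direction, leaving out vehicle replicate 6 gave 122 and 640, and leaving out DCA replicate 3 gave 113 and 648. Without DCA replicate 1 or 5 the higher counts were 127 and 114. Without vehicle replicate 5, limma called 1 gene, the unnamed transcript Gm42267, with an adjusted p of 0.0405. When limma weighted libraries by their distance from their group, 5370 of 12004 genes (44.7%) were called, 1623 higher and 3747 lower. The lowest weights went to DCA replicates 2 (0.275), 6 (0.312) and 4 (0.592) and vehicle replicate 4 (0.357), so the call of 0 genes holds for equally weighted libraries.

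**Figure D1:**
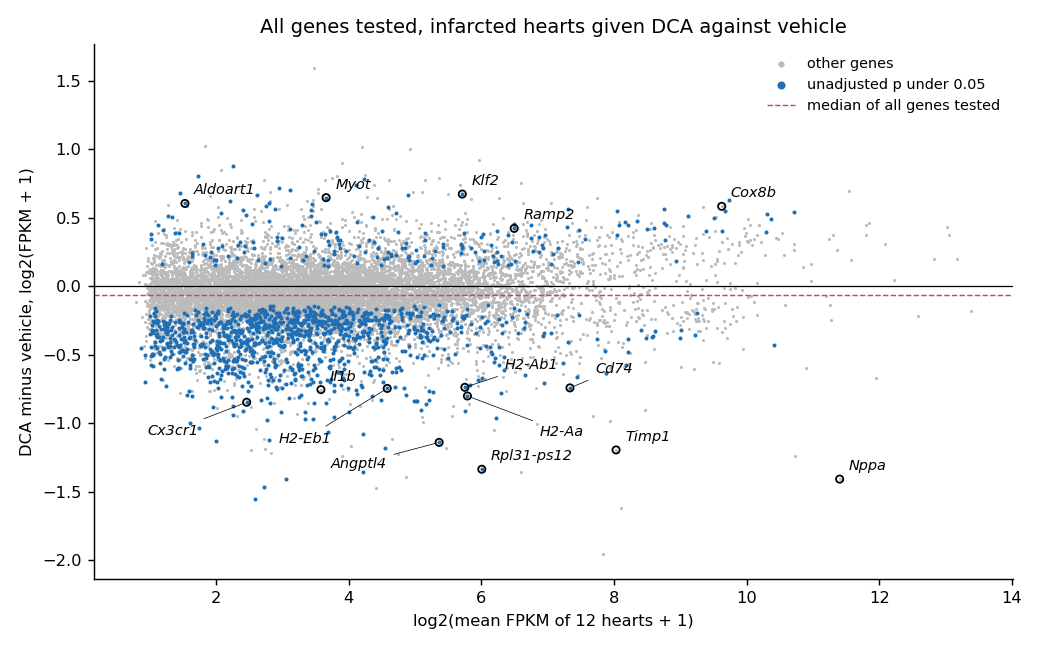
Each point is 1 of 12004 genes, with the log2 of its mean FPKM over the 12 infarcted hearts plus 1 on the horizontal axis and the DCA minus vehicle difference on the log2(FPKM + 1) scale on the vertical axis. Blue points have an unadjusted p under 0.05, mostly below 0, and the dashed line is the median of -0.06; no gene passed after adjustment.

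**Figure D2:**
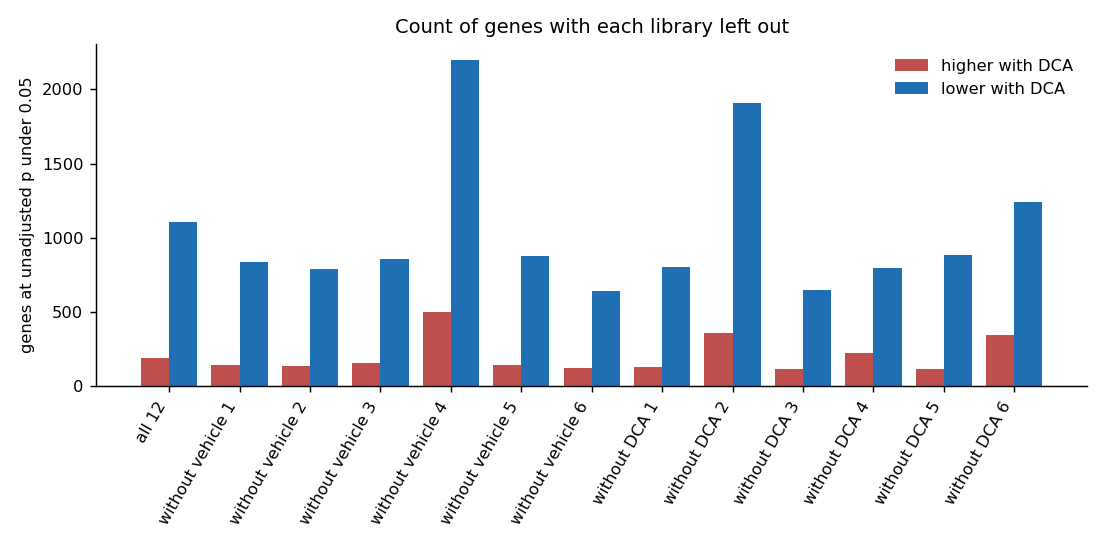
Bars give the number of genes at an unadjusted p under 0.05, higher (red) or lower (blue) with DCA, in all 12 libraries and with each library left out. The lower counts run from 640 without vehicle replicate 6 to 2196 without vehicle replicate 4.

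Among the more abundant genes, those averaging 10 FPKM or more, 4 genes of the MHC class II pathway were within the 10 on the lower side with the smallest p. Class II molecules show peptides to helper T cells: H2-Aa and H2-Ab1 encode the chains of I-A, H2-Eb1 a chain of I-E, and Cd74 the invariant chain that guards the peptide groove. RefSeq promoters of build GRCm38.p6, from 250 bases before to 50 bases after the start, were at hand for H2-Aa (chr17:34287774-34288073, minus strand) and H2-Eb1 (chr17:34305617-34305916, plus strand), and are shown because these genes sat together on the lower side. Capitals mark the letters TGACGTCA in H2-Aa, which match the full cAMP response element, and the inverted CCAAT box ATTGG in both. They also mark the letters CTAGCAAC in H2-Eb1, which resemble the X box core of class II genes.
H2-Aa: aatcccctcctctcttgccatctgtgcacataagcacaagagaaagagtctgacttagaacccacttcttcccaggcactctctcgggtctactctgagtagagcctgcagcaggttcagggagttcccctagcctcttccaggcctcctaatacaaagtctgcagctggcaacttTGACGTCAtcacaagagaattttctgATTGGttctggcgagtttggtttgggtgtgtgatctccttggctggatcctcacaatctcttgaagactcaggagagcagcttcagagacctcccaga
H2-Eb1: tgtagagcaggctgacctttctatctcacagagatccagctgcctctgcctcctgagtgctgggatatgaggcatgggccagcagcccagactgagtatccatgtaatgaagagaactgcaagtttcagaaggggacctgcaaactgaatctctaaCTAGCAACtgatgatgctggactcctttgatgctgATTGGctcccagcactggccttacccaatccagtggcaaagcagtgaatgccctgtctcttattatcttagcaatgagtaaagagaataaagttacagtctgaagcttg
In H2-Aa TGACGTCA began 74 bases before the start and ATTGG 48 bases before it. The letters ctggcaac, close to CTAGCAAC but left unmarked, stand just ahead of TGACGTCA there. A resemblance to the X box core is thus not particular to H2-Eb1. In H2-Eb1 CTAGCAAC began 94 bases and ATTGG 59 bases before the start. Searched on both strands, TGACGTCA, its own reverse complement, occurred in 1.79% of 32851 promoters of this length, CTAGCAAC in 1.32% and ATTGG in 37.4%; the last 2 motifs were chosen after the sequences were seen. The matches describe letters in these windows and say nothing of binding or of a response to cAMP. In H2-Aa, TGACGTCA lies between letters like the X box core and the inverted CCAAT box, so it may be part of a class II layout.

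Every vehicle heart had more H2-Aa transcript than every DCA heart: 57.9 at the lowest, 70 at the median and 74.8 at the highest FPKM with vehicle, against 22.4, 45.3 and 50.5 with DCA. H2-Ab1 ran from 55.1 through 66.5 to 71.9 with vehicle and from 24 through 43.7 to 51.8 with DCA. For H2-Eb1 the vehicle values were 22.8, 29.1 and 32.8, and the DCA values 10.3, 19.1 and 20.2. Cd74 lay at 175, 198 and 226 with vehicle and at 74.2, 135 and 153 with DCA. The groups did not overlap for any of these 4 genes, which were picked by their values. Of all genes tested, 56 (0.467%) did not overlap on the lower side. The sham medians of the 4 genes were 41, 37.4, 18.3 and 133 FPKM in the same order. DCA replicate 3 was the lowest heart for all of them and DCA replicate 5 the next. The log2 differences were -0.80 (SE 0.18) for H2-Aa, -0.74 (SE 0.17) for H2-Ab1, -0.75 (SE 0.16) for H2-Eb1 and -0.74 (SE 0.17) for Cd74. None passed, with adjusted p from limma of 0.402 for H2-Eb1 and 0.407 for H2-Aa, H2-Ab1 and Cd74.

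With the first principal component of the 12 libraries, drawn from the same values, as a covariate, H2-Aa differed by -0.67, H2-Ab1 by -0.61, H2-Eb1 by -0.64 and Cd74 by -0.60. All 4 were closer to 0 than without the covariate. With each library left out in turn, the difference of H2-Aa was between -0.88 and -0.65. With library weights, all 4 genes were called, as were 44.7% of all genes tested. The 4 had been picked by p from the same values, so this is no separate evidence.

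Other genes of the class II route were on the same side, named here after their values were seen. The exchange factor chains H2-DMa and H2-DMb1, which load peptides, overlapped between groups. H2-DMa ran from 3.03 through 6.36 to 8.44 FPKM with DCA and from 6.51 through 8.74 to 14.4 with vehicle, a difference of -0.60 (SE 0.21). H2-DMb1 ran from 4.59 through 8.42 to 9.46 with DCA and from 8.72 through 11.9 to 12.4 with vehicle, a difference of -0.53 (SE 0.17). Ciita, the master coactivator of class II transcription, was below the filter at 0.27, 0.44 and 0.74 FPKM with DCA and 0.57, 0.955 and 1 with vehicle, with an unadjusted two-sided exact permutation p of 0.00649. Class I genes had log2 differences of -0.38 (SE 0.20) for H2-K1, a classical heavy chain, and of -0.26 (SE 0.20) for B2m, its light chain, and without DCA replicate 4 these were -0.22 and -0.10. The class II genes here belong to a list of dendritic and mast cell markers, in which 5 of 9 tested members had an unadjusted p under 0.05 on the lower side, beside 9.22% of all genes; the list's median was -0.73, against -0.06 over all genes. These 5 were the class II genes H2-Aa, H2-Ab1, H2-Eb1 and Cd74 and the integrin chain Itgax (-0.66, SE 0.22), shared with macrophages. The list had 8 tested members below 0 and 1 above. Some markers more specific to dendritic cells, named like Itgax after their values were seen, did not lie with the class II genes. Clec9a, a receptor of cross-presenting dendritic cells, differed by 0.27 (SE 0.17), the lectin Cd209a by -0.03 (SE 0.27) and the transcription factor Zbtb46 by -0.04 (SE 0.09). The last 2 were above 0 with median-ratio scaling. The remaining tested member of the list, not named here, lay at the list's median of -0.73, level with the class II genes. It was not among the 5 at an unadjusted p under 0.05. Other listed dendritic cell markers, below the filter, were also named after their values were seen. They are not counted among the 103 named genes. By unadjusted exact permutation test, Flt3 differed by -0.31 (p = 0.0108), Siglech by -0.24 (p = 0.0281), Ccr7 by -0.26 (p = 0.177) and Xcr1 by 0.05 (p = 0.69). Medians of gene lists were sensitive to single hearts: 29 of the 45 lists with a tested member had a median that moved by over 1.5 times or turned sign when 1 library was left out.

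**Figure D3:**
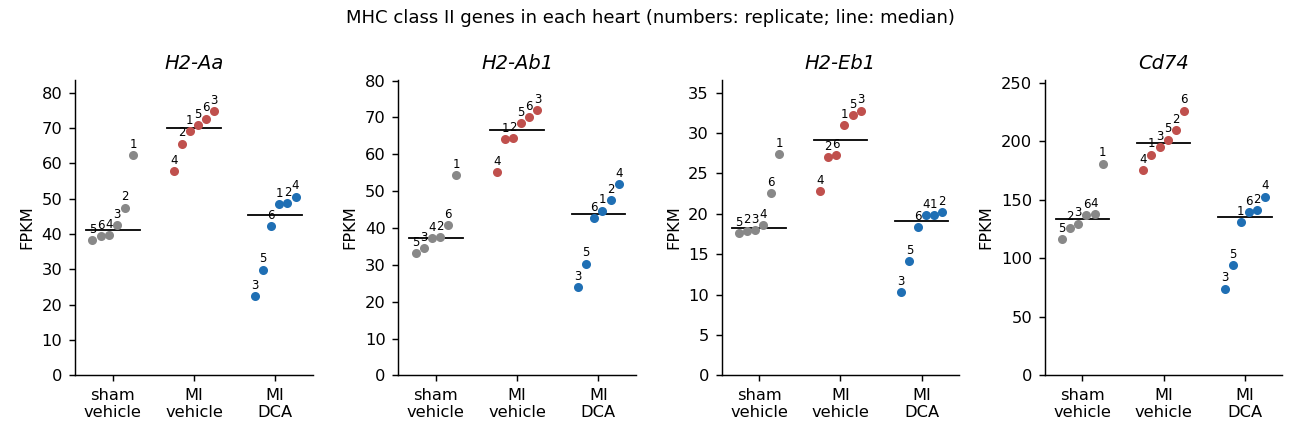
FPKM of 4 MHC class II genes in each heart, with sham vehicle in grey, MI vehicle in red, MI DCA in blue, replicate numbers above the points and the group median as a line. The DCA and vehicle groups do not overlap in any panel, and the DCA medians, such as 45.3 for H2-Aa, lie near the sham medians, such as 41. The 4 genes were picked by their values, and 0.467% of all genes tested did not overlap on the lower side.

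Lymphocyte transcripts were scarce, and the differences of all 18 listed genes found in the files were below 0. Of the 3 that passed the filter, 0 had an unadjusted p under 0.05 by limma: the granzyme Gzma (-0.44, SE 0.24), the B cell receptor chain Cd79a (-0.36, SE 0.20) and the interleukin 7 receptor Il7r, named to complete the 3 (-0.31, SE 0.21). DCA replicate 2 was the highest of all 12 infarcted hearts for each, at 2.51, 1.51 and 1.82 FPKM, against vehicle maxima of 2.15, 1.44 and 1.62. Of the 15 listed lymphocyte and NK cell genes below the filter, all 15 had a difference below 0 and 6 had an unadjusted exact permutation p under 0.05, beside 260 lower genes (4.11%) among all 6333 genes below the filter. Over those 6333 genes 0 passed adjustment by the exact permutation test, 306 had an unadjusted p under 0.05, and the smallest adjusted p was 0.762. Cd3d, a chain of the T cell receptor complex, was at 0, 0.08 and 0.11 FPKM with DCA and 0.15, 0.21 and 0.45 with vehicle. Nkg7, a granule protein of cytotoxic cells, was at 0, 0.365 and 0.77 with DCA and 0.98, 1.06 and 1.62 with vehicle. Neither gene overlapped between groups, which 15 genes below the filter did on the lower side (0.237%). Lck, the proximal kinase of the T cell receptor and named after its values were seen, was also without overlap at 0.05, 0.22 and 0.36 against 0.39, 0.5 and 0.93. Cd79b of the B cell receptor had 0.33, 0.53 and 0.82 FPKM with DCA and 0.71, 1 and 1.31 with vehicle, and Cd8b1 of cytotoxic T cells 0.36, 0.495 and 0.62 against 0.6, 0.665 and 1.31. The exact p was 0.00216 for Cd3d, Nkg7 and Lck, the smallest that 924 regroupings allow, and 0.00433 for Cd79b and Cd8b1. At these levels a heart contributes few reads per gene.

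Il10, an anti-inflammatory cytokine, was likewise below the filter and did not overlap, at 0, 0.095 and 0.14 FPKM with DCA and 0.18, 0.22 and 0.33 with vehicle (exact permutation p = 0.00216). Of all genes below the filter, 15 (0.237%) did not overlap on the lower side. The Il10 receptor chain Il10ra ran from 2.63 through 3.54 to 5.71 with DCA and from 3.7 through 6.06 to 7.56 with vehicle, a difference of -0.55 (SE 0.17). In the anti-inflammatory and resolution list that holds Il10ra, 19 of 26 tested genes were below 0 and 7 above. At an unadjusted p under 0.05, 4 (15.4%) were lower and 1 (3.85%) higher, beside 9.22% and 1.6% of all genes. Gp1bb, a platelet membrane glycoprotein, was at 0.18, 0.245 and 0.52 against 0.53, 0.62 and 1.21 (exact permutation p = 0.00216). All 7 tested erythroid and platelet genes had differences below 0, and 0 of them reached an unadjusted p under 0.05.

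Resident macrophage genes had 13 of 17 tested members below 0 and 4 above, with differences between -0.85 and 0.23. At an unadjusted p under 0.05, 5 (29.4%) were lower, beside 9.22% of all genes. The list median was -0.27, or -0.18 without DCA replicate 4. With median-ratio scaling 4 of the 17 were lower at that p, where 610 of 12004 genes were. With quantile normalisation 5 were, and 569 of all genes. Timd4 of the list, below the filter and not counted among the 103 named genes, differed by 0.12 (exact permutation p = 0.703). Cx3cr1, the fractalkine receptor of resident macrophages and patrolling monocytes, was at 1.86, 3.02 and 4.25 FPKM with DCA and 3.32, 6.14 and 8.85 with vehicle. Vehicle replicate 4, at 3.32, was the only vehicle heart within the DCA range. Its difference was -0.85 (SE 0.21) with an adjusted p of 0.407 from limma, and -0.65 with the first principal component as a covariate. Mrc1, the mannose receptor, ran from 6.42 through 9.09 to 10.1 with DCA and from 9.66 through 12 to 14.6 with vehicle, a difference of -0.43 (SE 0.12).

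The bile acid receptors Gpbar1 and Nr1h4 were below the filter in these hearts. Gpbar1 was at 0, 0.22 and 0.56 FPKM with DCA and 0.08, 0.25 and 0.82 with vehicle, with an exact permutation p of 0.535, and its sham median was 0. Nr1h4, the nuclear bile acid receptor FXR, was at 0.06, 0.235 and 1.05 with DCA and 0.24, 0.31 and 0.46 with vehicle, with an exact permutation p of 0.981. S1pr2, a sphingosine 1-phosphate receptor that conjugated bile acids can engage, was at 3.46, 5.09 and 6.92 with DCA and 5.34, 6.3 and 8.17 with vehicle, a difference of -0.30 (SE 0.15). No difference in the level of these 3 receptors was detectable at this depth. Nr1i3, another nuclear receptor below the filter, was higher, at 0.54, 0.765 and 0.79 with DCA and 0.22, 0.415 and 0.61 with vehicle. Its exact permutation p was 0.013, and 0.923 after adjustment. On the lower side, Vdr differed by -0.22 (exact permutation p = 0.0823) and Klb by -0.06 (p = 0.0281). Nr1i3, Vdr and Klb were named after their values were seen and are not counted among the 103 named genes. Of 7 tested genes of bile acid reception and handling, 2 (28.6%) had an unadjusted p under 0.05 on the lower side, beside 9.22% of all genes. They were the exporter Abcc3, at a difference of -0.42 (SE 0.17), and the oxysterol hydroxylase Cyp7b1, at -0.39 (SE 0.17).

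Genes of cAMP production and breakdown showed no common direction. Of 35 tested, 19 were above 0 and 16 below, and the median was 0.01. At an unadjusted p under 0.05, 3 (8.57%) were on the lower side, beside 9.22% of all genes. Pde3b, a phosphodiesterase that degrades cAMP, was at 0.76, 1.02 and 1.79 FPKM with DCA and 1.19, 1.79 and 2.07 with vehicle. Gnai3, an inhibitory G protein subunit, was at 10.2, 12.2 and 16.9 with DCA and 11.7, 17.3 and 21.6 with vehicle. Both ranges overlapped, with differences of -0.35 (SE 0.13) and -0.37 (SE 0.15).

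Known targets of the cAMP-responsive factor CREB were split. Of 18 tested, 8 were above 0 and 10 below, with a median of -0.15. The median was between -0.30, without DCA replicate 6, and -0.02, without DCA replicate 5, and moved by over 1.5 times without any 1 of 8 libraries. Per1 and Per2, clock repressors that CREB can induce, had unadjusted p under 0.05 on the higher side, and Fosb, an immediate early AP-1 subunit, on the lower side. These were 11.1% and 5.56% of the list, beside 1.6% and 9.22% of all genes. Per1 ran from 8.57 through 23.4 to 40.9 FPKM with DCA and from 7.84 through 12.5 to 15.8 with vehicle, a difference of 0.78 (SE 0.32). DCA replicates 1, 3, 4 and 5 exceeded the vehicle maximum of 15.8, and replicates 2 and 6, at 14.3 and 8.57, did not. Per2 ran from 4.15 through 7.38 to 10.6 with DCA and from 3.64 through 5.04 to 5.47 with vehicle, a difference of 0.47 (SE 0.18). Fosb was at 0.27, 0.82 and 1.5 with DCA and 1.2, 1.74 and 2.73 with vehicle, a difference of -0.60 (SE 0.19). Per1 and Per2 also belong to the circadian clock list, in which 12 of 18 tested genes were above 0 and 2, these same genes, had an unadjusted p under 0.05; the labels give no hour of collection.

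In promoters, the full cAMP response element matched 330 (3.45%) of the 9571 tested genes with a RefSeq promoter. The median difference of these genes was -0.05, against -0.06 for those without a match. A motif of the NF-kB type, searched on both strands, matched 199 tested genes (2.08%) and 1.63% of all promoters of this length. Genes with it had a median of -0.09, against -0.06 without.

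The NF-kB pathway list had 27 of 30 tested members below 0, where 64.8% of all genes were, with a median of -0.18. The median was -0.115 with median-ratio scaling and -0.09 with quantile normalisation. At an unadjusted p under 0.05, 7 (23.3%) were on the lower side, beside 9.22% of all genes. Nfkb1, which encodes the p105 precursor and p50, ran from 14.2 through 15.3 to 16.7 FPKM with DCA and from 16.3 through 18.4 to 21.1 with vehicle, a difference of -0.25 (SE 0.07) with an adjusted p of 0.407 from limma. Its ranges overlapped narrowly, between 16.3 and 16.7, and its sham median was 15.3. Nfkbie, an inhibitor that NF-kB itself induces, was at 1.56, 1.84 and 3.71 with DCA and 2.63, 3.07 and 4.71 with vehicle, a difference of -0.50 (SE 0.17). Nfkbia, the prototype inhibitor, was at 34.2, 44.2 and 70.5 against 36.5, 43.5 and 58.6, a difference of 0.05 (SE 0.17).

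All 27 tested proinflammatory cytokines and chemokines were below 0, with a median of -0.46, and 4 had an unadjusted p under 0.05. Beside that, 9.22% of all genes reached it on the lower side. The cytokines the study's subject centres on overlapped between groups. Il1b, the main product of the inflammasome, ran from 2.9 through 5.72 to 18.5 FPKM with DCA and from 5.37 through 11.4 to 34 with vehicle, a difference of -0.75 (SE 0.46). DCA replicate 2, at 18.5, was above every vehicle heart other than replicate 3, without which the difference was -0.46. Il6 was at 0.45, 1.91 and 5.02 with DCA and 2.28, 2.67 and 14.1 with vehicle, a difference of -0.94 (SE 0.46). Of the DCA hearts, only replicates 2 and 6, at 5.02 and 3.17, lay within the vehicle range of Il6. Its difference was -0.65 without vehicle replicate 3, the heart at 14.1, and -1.16 without DCA replicate 2. Tnf was at 0.71, 0.84 and 1.25 against 0.73, 1.42 and 2.43, a difference of -0.33 (SE 0.16). The adjusted p from limma was 0.542 for Il1b and 0.465 for Il6 and Tnf.

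Among chemokines, Ccl2, which recruits monocytes, was at 23.7, 33.4 and 104 FPKM with DCA and 32.7, 74.2 and 110 with vehicle, a difference of -0.63 (SE 0.40). DCA replicates 2 and 6 had 104 and 96.3, at the level of the highest vehicle hearts, and the other 4 DCA hearts had 23.7 to 36.9. With the first principal component as a covariate the difference of Ccl2 was -0.12. Ccl4 was at 1.12, 1.96 and 5.89 with DCA and 2.17, 5.84 and 10 with vehicle, a difference of -0.91 (SE 0.36). Cxcl16, a transmembrane chemokine of macrophages and endothelium, was at 7.97, 9.98 and 17.6 against 10.8, 15.5 and 22.8, a difference of -0.54 (SE 0.19). The neutrophil chemokine Cxcl2 differed by -0.72 (SE 0.47), and by -0.30 without vehicle replicate 3, which had 19.3 FPKM while the other vehicle hearts had 1.37 to 4.61. Cxcl10, which attracts T cells, differed by -0.72 (SE 0.37).

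In the list of IL-1 signalling, the inflammasome and pyroptosis, 23 of 24 tested genes were below 0 and the median was -0.29. At an unadjusted p under 0.05, 8 (33.3%) were lower, beside 9.22% of all genes. Nlrp3, the inflammasome sensor, was at 0.57, 0.95 and 1.87 FPKM with DCA and 0.9, 1.63 and 2.09 with vehicle, a difference of -0.36 (SE 0.17) with an adjusted p of 0.461 from limma. Aim2, the sensor of cytosolic DNA, was at 2.1, 2.74 and 3.46 with DCA and 3.06, 3.94 and 5.18 with vehicle, a difference of -0.44 (SE 0.13). P2rx7, the ATP-gated channel upstream of NLRP3, was at 1.73, 2.1 and 2.92 against 2.37, 2.9 and 3.24, a difference of -0.28 (SE 0.09). The first principal component as a covariate left -0.42 for Aim2 and -0.26 for P2rx7, and -0.19 for Nlrp3.

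Monocyte and neutrophil genes lay mostly on the lower side, with wide spread between hearts. Among infiltrating monocyte and macrophage genes, 25 of 26 tested were below 0, with a median of -0.63. At an unadjusted p under 0.05, 7 (26.9%) were lower, beside 9.22% of all genes. Ccr2, the receptor for Ccl2, was at 5.59, 13.2 and 27.7 FPKM with DCA and 14.1, 27.2 and 40.8 with vehicle, a difference of -0.83 (SE 0.35). Itgam, the integrin chain CD11b of myeloid cells, was at 6.9, 11.5 and 20.8 against 10.5, 22.8 and 34.4, a difference of -0.72 (SE 0.29). Ly6c2, a marker of inflammatory monocytes, reached 77.7 in DCA replicate 2 and 72.4 in vehicle replicate 2, and its difference of -0.37 (SE 0.42) was -0.70 without the first of these hearts and -0.13 without the second. Among neutrophil genes, 16 of 18 were below 0, with a median of -0.61, and 4 (22.2%) were lower at that p, beside the same 9.22%. S100a8, an abundant neutrophil calcium-binding protein, was at 7.82, 14.4 and 42 with DCA and 11.6, 33.4 and 121 with vehicle, a difference of -0.99 (SE 0.58), or -0.63 without vehicle replicate 2. Mmp9, a granule gelatinase, differed by -0.76 (SE 0.30) and Cxcr4, a chemokine receptor of aged neutrophils, by -0.63 (SE 0.25).

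Adhesion genes gave 5 of 22 tested members at an unadjusted p under 0.05, all lower, beside 9.22% of all genes. Selplg, the leukocyte ligand of P-selectin, was at 8.21, 10.9 and 20 FPKM with DCA and 13.5, 20.6 and 32.9 with vehicle, a difference of -0.79 (SE 0.23). Vcam1, which anchors leukocytes to endothelium, was at 8.2, 9.77 and 13.3 against 11.8, 13.6 and 15.2, a difference of -0.38 (SE 0.12). Adgre5, the adhesion receptor CD97 of leukocytes, is outside this list and was picked by its values. It did not overlap, at 22.7, 30.2 and 30.7 with DCA and 31.9, 35.2 and 43.8 with vehicle, a difference of -0.36 (SE 0.11). Of all genes tested, 0.467% did not overlap on the lower side.

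Interferon-stimulated genes were split. Of 34 tested, 16 were above 0 and 18 below, 0 had an unadjusted p under 0.05 by limma, and the median of -0.02 changed sign with median-ratio scaling (0.05) and quantile normalisation (0.01). Ifi205, an interferon-induced DNA-binding protein, was at 15.2, 27.2 and 34.3 FPKM with DCA and 16.9, 20.2 and 22.4 with vehicle, a difference of 0.34 (SE 0.18). In antigen presentation outside class II, 15 of 16 tested genes were below 0. At an unadjusted p under 0.05, 3 (18.8%) were lower, beside 9.22% of all genes. Psmb8, an immunoproteasome subunit, was at 15.8, 21.8 and 32 with DCA and 26.9, 28.3 and 46.3 with vehicle. H2-Q6, a nonclassical class I gene, differed by -0.81 (SE 0.28), but its reads may be shared with near-identical neighbours of the H2-Q cluster.

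Stress genes of the muscle combined large differences between group means with a wide spread between hearts. Of 24 tested, 20 were below 0, the median was -0.56, and 0 had an unadjusted p under 0.05 by limma. The median was -0.23 without DCA replicate 3, -0.29 without DCA replicate 1 and -0.36 without DCA replicate 5, and -0.87, -0.86 and -0.85 without DCA replicate 2, DCA replicate 6 and vehicle replicate 4. Nppa, atrial natriuretic peptide, ran from 375 through 1591 to 2975 FPKM with DCA and from 771 through 3687 to 7037 with vehicle, a difference of -1.41 (SE 0.65) with an adjusted p of 0.46 from limma. Nppb, B-type natriuretic peptide, ran from 144 through 1332 to 2594 with DCA and from 324 through 2350 to 3500 with vehicle, a difference of -1.24 (SE 0.88), or -0.79 without DCA replicate 3. Timp1, an inhibitor of matrix metalloproteinases, was at 50.6, 127 and 340 with DCA and 81.7, 342 and 686 with vehicle, a difference of -1.19 (SE 0.56). Within each group low hearts stood apart from high ones, with DCA replicates 1, 3 and 5 and vehicle replicate 4 the lowest for all 3 genes. With the first principal component as a covariate the differences were -0.62 for Nppa, -0.14 for Nppb and -0.49 for Timp1. Myh7, the slow myosin chain, was at 71.2, 102 and 442 with DCA and 73.3, 133 and 157 with vehicle. Its difference of 0.06 (SE 0.39) rested on DCA replicate 4, the heart at 442, without which it was -0.30.

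**Figure D4:**
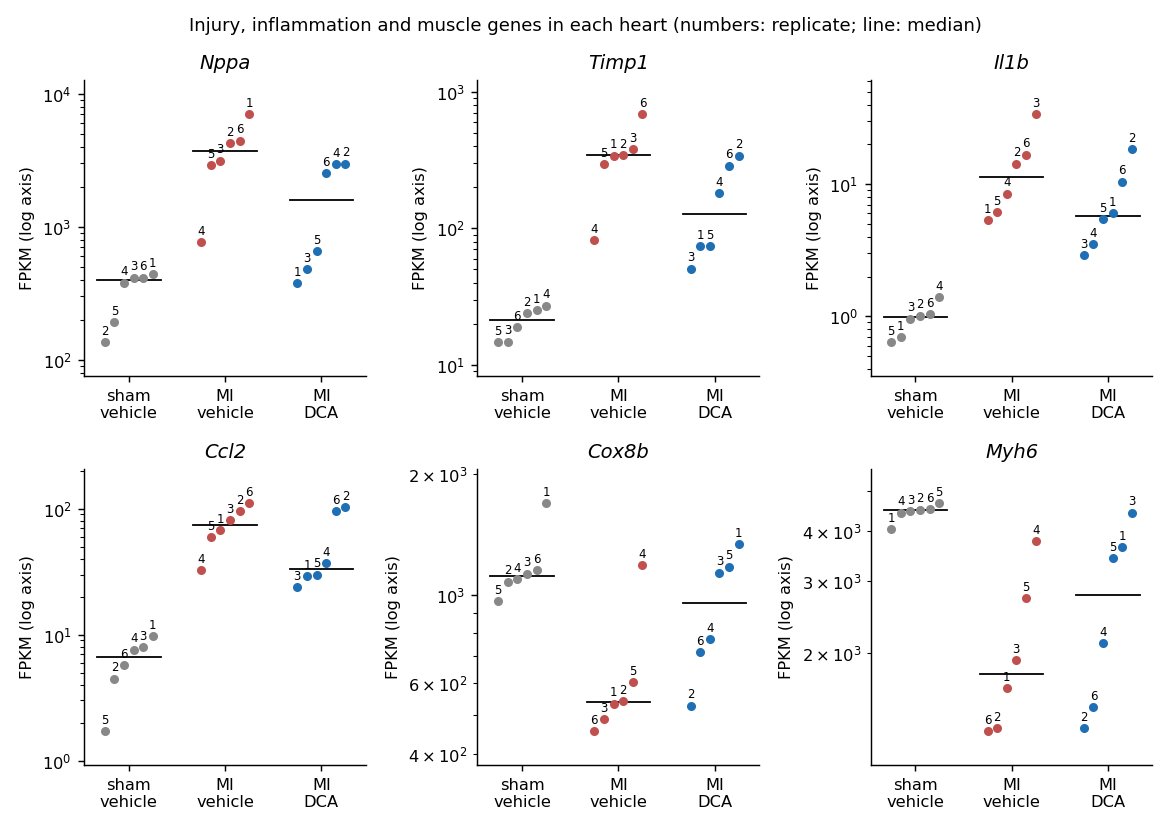
FPKM on log axes of 6 genes in each heart, with sham vehicle in grey, MI vehicle in red, MI DCA in blue, replicate numbers above the points and medians as lines. DCA replicates 1, 3 and 5 and vehicle replicate 4 lie lowest in their groups for Nppa, from 375 to 771, and highest for Myh6, from 3428 to 4428.

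Genes of muscle contraction and energy supply lay mostly on the higher side. All 42 tested oxidative phosphorylation genes were above 0, with a median of 0.27, and 1 (2.38%) had an unadjusted p under 0.05, beside 1.6% of all genes on the higher side. With median-ratio scaling 7 had, and with quantile normalisation 2, where 519 and 563 of all 12004 genes were higher at that p. The mean level of the list per heart was 9.35 to 9.45 on the log2 scale in DCA replicates 1, 3 and 5. It was 9.40 in vehicle replicate 4, the other heart near the sham end. In DCA replicates 2, 4 and 6 it was 8.52, 9.07 and 8.75, and in the remaining vehicle hearts 8.42 to 8.95. The gene at that p was Cox6b1, a subunit of cytochrome c oxidase, at 972, 1513 and 1678 FPKM with DCA and 840, 1041 and 1454 with vehicle, a difference of 0.40 (SE 0.17). The muscle isoform Cox8b was at 527, 953 and 1338 against 455, 537 and 1182, a difference of 0.58 (SE 0.27). In fatty acid uptake and oxidation 27 of 29 genes were above 0, with a median of 0.34. Of these genes 1 (3.45%) had an unadjusted p under 0.05, the mitochondrial thioesterase Acot13 (difference 0.48, SE 0.20). Among 30 cardiomyocyte markers 24 were above 0, with a median of 0.24. Ldb3 and Myoz2, both of the Z-disc and 6.67% of these markers, had an unadjusted p under 0.05, with differences of 0.34 (SE 0.14) and 0.63 (SE 0.25).

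Myh6, the fast adult myosin chain, ran from 1309 through 2774 to 4428 FPKM with DCA and from 1286 through 1779 to 3771 with vehicle, a difference of 0.34 (SE 0.36) that lay between 0.17, without DCA replicate 3, and 0.53, without vehicle replicate 4, when 1 library was left out. Kcnip2, a subunit of the transient outward potassium channel, was at 11.8, 40.8 and 76.3 against 5.91, 18.8 and 75.2, a difference of 0.69 (SE 0.61), or 1.07 without vehicle replicate 4 and 0.38 without vehicle replicate 6. Both had the opposite sign with the first principal component as a covariate, -0.12 and -0.10. Among ion channel and calcium handling genes 24 of 30 were above 0. At an unadjusted p under 0.05, 2 (6.67%) were higher, beside 1.6% of all genes. They were Asph, a protein of the sarcoplasmic reticulum (0.36, SE 0.14), and Kcna5, a delayed rectifier channel (0.60, SE 0.25). Cox8b, Myoz2 and Acot13 kept positive differences with the covariate, at 0.26, 0.32 and 0.24.

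Among lists with more than 9 tested members, matrix genes had the largest share at an unadjusted p under 0.05. In activated fibroblast and matrix genes 27 of 29 were below 0 and the median was -0.64. At an unadjusted p under 0.05, 14 (48.3%) were lower, beside 9.22% of all genes. Col3a1, a fibrillar collagen, was at 84.4, 138 and 170 FPKM with DCA and 164, 201 and 303 with vehicle. Its ranges overlapped between 164 and 170, and its difference was -0.66 (SE 0.18) with an adjusted p of 0.407 from limma. Col5a1 was at 13.9, 15.8 and 22.1 with DCA and 17.8, 26.2 and 39.6 with vehicle, a difference of -0.61 (SE 0.18). Col1a1 was at 78.3, 113 and 157 against 109, 166 and 286, a difference of -0.56 (SE 0.23). With the first principal component as a covariate Col3a1 differed by -0.65, Col5a1 by -0.46 and Col1a1 by -0.40. Spp1, osteopontin, made by infiltrating macrophages and activated fibroblasts, differed by -0.98 (SE 0.56), and by -0.30 with the covariate. Resting fibroblast genes had 12 of 22 above 0 and 0 at an unadjusted p under 0.05 by limma. Aldh1a2, a retinoic acid enzyme of the activated epicardium, was at 11.3, 26.7 and 37.4 with DCA and 17.1, 49.3 and 66.9 with vehicle, a difference of -0.83 (SE 0.34). Plau, the urokinase plasminogen activator, differed by -0.97 (SE 0.34).

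Vessel genes were mixed. Of 24 endothelial genes 17 were above 0, 3 (12.5%) had an unadjusted p under 0.05 on the higher side and 1 (4.17%) on the lower. Over all genes these shares were 1.6% and 9.22%. Ramp2, which turns the calcitonin receptor-like receptor into an adrenomedullin receptor, was at 85.1, 102 and 118 FPKM with DCA and 60.6, 78 and 85.8 with vehicle, a difference of 0.42 (SE 0.10) with an adjusted p of 0.407 from limma. Ramp3, its homologue, was at 3.23, 5.42 and 6.58 with DCA and 2.45, 2.77 and 5.88 with vehicle, a difference of 0.56 (SE 0.19). Adm, the ligand adrenomedullin and a hypoxia target, lay on the other side, at 5.62, 6.28 and 16.9 with DCA and 6.65, 18.9 and 31.8 with vehicle, a difference of -0.96 (SE 0.36). Hif1a, the oxygen-regulated factor, differed by -0.38 (SE 0.15). Cldn5, a tight junction protein of endothelium, was at 13.8, 16.5 and 22.6 with DCA and 18.9, 26.9 and 29.6 with vehicle, a difference of -0.53 (SE 0.14). Ly6c1, a surface protein of endothelial and myeloid cells, was at 237, 333 and 425 against 183, 233 and 323, a difference of 0.47 (SE 0.17), and Fabp4, a capillary fatty acid carrier, differed by 0.49 (SE 0.19). Klf2, a flow-induced transcription factor, ran from 35.1 through 63.6 to 96.3 with DCA and from 33.5 through 38.1 to 43.7 with vehicle, a difference of 0.67 (SE 0.22). DCA replicates 1, 3, 4 and 5 exceeded the vehicle maximum of Klf2, and replicates 2 and 6, at 42 and 35.1, did not. Jcad, an endothelial junction protein outside the list, was picked by its values. It did not overlap, at 13.6, 14.9 and 16.7 against 10.6, 12.1 and 13.4, a difference of 0.31 (SE 0.08). Of all genes tested, 0.075% did not overlap on the higher side.

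Of 24 PPAR target genes 18 were above 0, yet the 2 (8.33%) with an unadjusted p under 0.05 were on the lower side, beside 9.22% of all genes. Angptl4, an inhibitor of lipoprotein lipase, was at 16.5, 21 and 43.5 FPKM with DCA and 31.6, 57.9 and 83.2 with vehicle. DCA replicate 6, at 43.5, was the only DCA heart within the vehicle range, and the difference was -1.14 (SE 0.29) with an adjusted p of 0.407 from limma. Plin2, which coats lipid droplets, was at 54.8, 61.6 and 73.9 with DCA and 65.9, 91.2 and 101 with vehicle, a difference of -0.44 (SE 0.11). With the first principal component as a covariate Angptl4 differed by -0.92 and Plin2 by -0.50. In the stress response of the endoplasmic reticulum 18 of 25 genes were below 0, where 64.8% of all genes were. At an unadjusted p under 0.05, 2 (8%) were lower, not more than the 9.22% of all genes. Trib3, a pseudokinase induced by amino acid and lipid stress, differed by -0.74 (SE 0.24). Among 33 cell cycle genes 31 were below 0, with a median of -0.42. At an unadjusted p under 0.05, 2 (6.06%) were lower, also not more than the 9.22% of all genes. The replication helicase subunit Mcm7 was among them (-0.42, SE 0.14). Of 26 ribosomal protein genes 25 were below 0, with a median of -0.25, where 64.8% of all genes were below 0. At an unadjusted p under 0.05, 3 (11.5%) were lower, beside 9.22% of all genes.

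Among the genes with the smallest p outside these lists, several had groups without overlap, having been picked by their values. Over all genes tested, 0.075% did not overlap on the higher side and 0.467% on the lower. Sin3b, a corepressor scaffold, was at 28.2, 31 and 33.1 FPKM with DCA and 36.4, 39 and 41.1 with vehicle, a difference of -0.34 (SE 0.06). Maged2, a MAGE family protein, was at 8.74, 11.8 and 12.5 against 12.7, 17.1 and 18.3, a difference of -0.52 (SE 0.11). Id2, an inhibitor of basic helix-loop-helix factors that innate lymphocytes and dendritic cells require, was at 8.71, 11.8 and 13.3 with DCA and 14.6, 16.9 and 19.3 with vehicle, a difference of -0.57 (SE 0.12). Myot, a Z-disc protein, was at 12.6, 14.5 and 15.7 with DCA and 5.92, 9.39 and 12.1 with vehicle, a difference of 0.65 (SE 0.16). Adjusted p from limma was 0.402 for Sin3b, Maged2 and Id2 and 0.407 for Myot. Drap1, a transcriptional corepressor, and Tspan7, a tetraspanin, overlapped narrowly on the higher side, with differences of 0.45 (SE 0.11) and 0.38 (SE 0.10). Aldoart1 was at 2.02, 2.35 and 3.11 with DCA and 1, 1.33 and 1.46 with vehicle, a difference of 0.60 (SE 0.09). Rpl31-ps12 (-1.33, SE 0.28) and Gapdh-ps15 (0.57, SE 0.14) are pseudogenes, and their reads, like those of Aldoart1, may be shared with their parent genes.

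**Figure D5:**
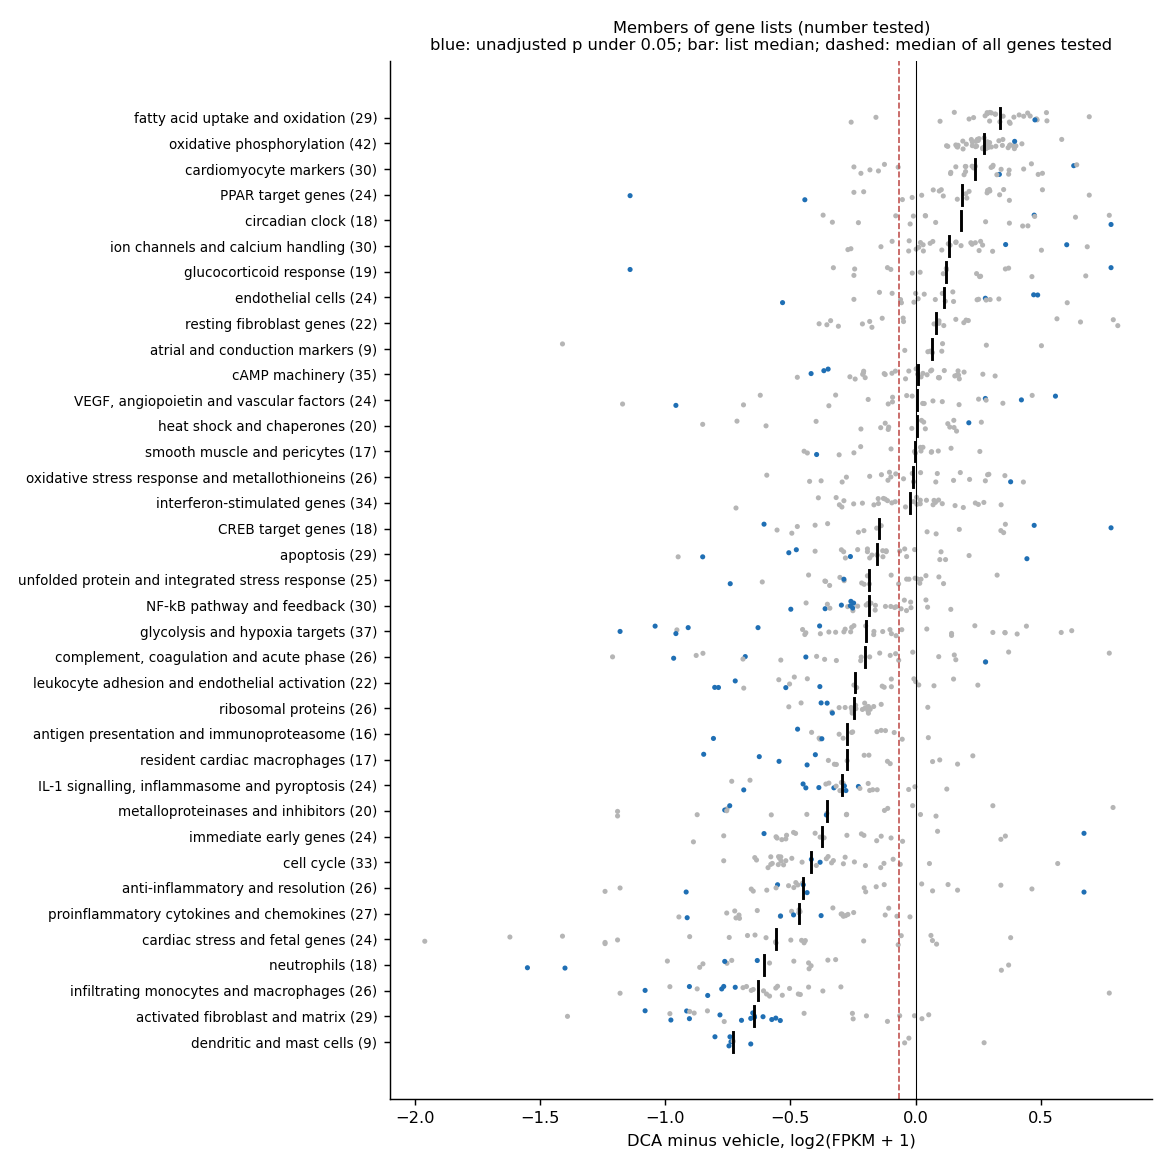
Each point is 1 tested member of a gene list, at its DCA minus vehicle difference on the log2(FPKM + 1) scale; blue points have an unadjusted p under 0.05, black bars are list medians, the dashed line is the median of all genes, and the number tested stands beside each name. Lists with at least 9 tested members are shown, and their medians run from -0.73 for dendritic and mast cell markers to 0.34 for fatty acid uptake and oxidation.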

How the data were processed

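Per the labels' protocols, Trizol-extracted total RNA went into RNA Access capture libraries, read as single ends of 50 bases on a BGISEQ-500. Tools listed in the submitters' processing notes are RSEM 1.2.12, Bowtie2 2.2.5 and DESeq2 1.4.5, with the build GRCm38.p6 and no roles; how each was used is not given in the sources used here. The deposited values are FPKM per gene (19197) and per transcript (64405), rounded to 2 decimals by the authors. The unit was judged from the values, since the file headers do not name it. The values hold no counts, so no counting interval is given, and depth was estimated from the steps of low values. Because the files hold FPKM, the count test planned for expected counts was not used.

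Libraries were grouped by their tissue and treatment labels and took their numbers from the titles. No label says that each library is a separate mouse, so p-values measure only the spread between these samples. No 2 libraries were identical. Differences were tested two-sided on log2(FPKM + 1) by limma (3.58.1, R 4.3.3) with its trend option. Genes tested reached 1 FPKM in 6 or more of the 12 infarcted libraries, and p-values were adjusted by Benjamini-Hochberg over all genes tested. A gene was called at an adjusted p under 0.05. Genes below the filter with a value above 0 went through an exact permutation test, two-sided, over 924 regroupings, adjusted over all 6333. The code was tested on simulated data.

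The members of 46 gene lists, the lists themselves and the comparison were chosen with earlier results of these data known, so lists are described by counts and medians with no test. Genes named were, per direction, the 10 of lowest p at a mean FPKM of at least 10, the 2 of each list with the smallest p, a set reported whatever their values, and up to 10 per direction without overlap at that mean; not all are printed, and those named otherwise are said to be. Level per heart of a list means the mean log2(FPKM + 1) of its tested members. Of the gene identifiers, 19051 (99.2%) matched RefSeq. Promoters came from RefSeq (GRCm38.p6). Alternatives were other pseudocounts, filters and scalings, all 18 libraries, library weights, a principal component covariate, a replicate block, no trend, and each library left out.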

Additional observations from a re-analysis of the deposited data

Results flagged for a closer look

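In 206 groups of 6 values, 103 named genes in the DCA and in the vehicle group, 25 (12.1%) held a heart far from its nearest neighbour. Its gap was too large a part of the group's range by Dixon's test at the 95% level. For independent, normally distributed values chance marks about 1 in 20. These values were FPKM without a log scale, and all groups came from the same 12 hearts, so the 2 shares cannot be compared. Vehicle replicate 4 accounted for 11 of the 25. It was the highest vehicle heart for Kcnip2 (75.2 FPKM, the others 5.91 to 26.1), Myoz2 (1200, the others 472 to 684), Acot13 (411), Cox6b1 (1454), Cox8b (1182, the others 455 to 604), Ramp3 (5.88) and Drap1 (269), and the lowest for Plau (4.36, the others 13.4 to 17.5), Maged2 (12.7), Itgax (1.88) and Il7r (0.34).

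DCA replicate 2 stood apart 5 times. It was the highest DCA heart for Il10ra (5.71), Selplg (20), Cxcl16 (17.6) and Ly6c2 (77.7, the others 11.3 to 28.8), and the lowest for Cd3d, at 0. DCA replicate 4 was the highest for Myh7 (442, the others 71.2 to 134) and Adm (16.9, the others 5.62 to 7.54) and the lowest for H2-Q6 (3.52). DCA replicate 1 was the highest for Cyp7b1, at 1.95.

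Among the other vehicle hearts, replicate 2 was the highest for Ly6c2 (72.4, the others 19.4 to 34.5) and Psmb8 (46.3). Replicate 3 was the highest for Cxcl2 (19.3, the others 1.37 to 4.61), replicate 5 for Nkg7 (1.62) and replicate 6 for Col3a1 (303).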

How the results depend on the processing

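Of 103 named genes, 96 kept their direction under every alternative tried. The exceptions were Nfkbia (-0.0184), Myh6 (-0.122) and Kcnip2 (-0.0996) with the first principal component as a covariate, Myh7 with library weights (-0.316) and Nr1h4 with a pseudocount of 0.1 (-0.158), Cd209a with median-ratio scaling (0.00854), quantile normalisation (0.104) and the covariate (0.00991), and Zbtb46 with these scalings (0.0238 and 0.0583) and library weights (0.0531). With 1 library left out, Myh7 ranged from -0.304 to 0.219, Nfkbia from -0.0681 to 0.137, Cd209a from -0.172 to 0.113 and Nr1h4 from -0.118 to 0.0721. Library weights called 1623 genes higher and 3747 lower, 44.7% of the genes tested, with 2110 and 4407 at an unadjusted p under 0.05. Of the named genes, many of them picked by p from the same values, 84 were among those called. The cause of these counts was not tested. Every other alternative on all 12 hearts, by limma, called 0 genes, with smallest adjusted p from 0.0639 (quantile normalisation) to 0.437 (filter of FPKM 5). Genes at an unadjusted p under 0.05 on the higher side numbered 519 with median-ratio scaling, 563 with quantile normalisation, 295 with all 18 libraries and 460 with the principal component covariate. On the lower side they numbered 610 and 569 with these scalings and 723 with the filter of FPKM 5, which tested fewer genes. Transcripts with that filter gave 284 and 665. With 1 library left out, limma called 0 genes higher and 0 to 1 lower, and the counts at an unadjusted p under 0.05 were 113 to 503 higher and 640 to 2196 lower. Genes below the filter gave 38 to 98 higher and 208 to 386 lower by the exact permutation test, and 0 called after adjustment.

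Title numbers recur in both groups, but not every pair of the same number deviated together: correlations of their deviations ran from -0.446 to 0.69, 4 of 6 were over 0.1, and 1 of 6 correlated best with its own number. The fit with a replicate block called 0 genes by limma, with 283 higher and 1400 lower at an unadjusted p under 0.05. The medians of the cAMP machinery (0.08 with either scaling) and of lymphocyte (-0.87 with a pseudocount of 0.1, -0.11 with 5) and dendritic cell markers (-0.41 with 5) moved by more than the spread between vehicle hearts. Depth limits genes below 1 FPKM most.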
